A study of Mus musculus with 165 samples.

Results

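The regions described here are stretches of the mouse genome that lay in compartment A after 15 min of calcium ionophore, and in compartment B in progenitors, in untreated neutrophils and after 30 min. They were chosen by the sign of the first principal component (PC1) of Hi-C contact maps. A member is an autosomal 25 kb bin with PC1 above 0 at 15 min and below 0 in the other 3 tracks, in a run of at least 2 adjacent such bins. Of 94800 autosomal bins with a value in all 4 tracks, 1815 had these signs. A further 521 of those stood alone and were dropped, which left 1294 bins in 360 runs, or 1.36% of the bins compared and 32.35 Mb.

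All cells were of the ECOMG line, GM-CSF-dependent myeloid progenitors on a C57BL/6 background, with the genotype given as human E2A_ER_Pbx1b, wild type. The progenitor group held undifferentiated cells of the line. The untreated neutrophils were made from the line by 5 days without estradiol, and both activated groups were the same neutrophils given 20 uM A23187 with 1 mM calcium for 15 min or 30 min. Hi-C, which ligates and sequences pairs of DNA fragments in contact inside the nucleus, was used to follow compartments on differentiation and on calcium influx.

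Each group is 1 PC1 track. The progenitor track pools 7 libraries, and the untreated track pools 8 libraries from 7 replicates, since 1 replicate has 2 PCR libraries. The 15 min track belongs to a sample labelled replicate 2 and the 30 min track to a sample labelled replicate 1, so the time of treatment cannot be told apart from the replicate. The progenitor and untreated libraries are marked as a re-analysis and were read on another instrument model than the activated ones, per the labels, so treatment and batch cannot be told apart either. No difference below has a replicate check, and ranges over chromosomes are given as the spread, although chromosomes are not replicates. The files carry no read counts, so depth is unknown.

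Chromatin is sorted in the nucleus into an A compartment, which holds most active genes and open chromatin, and a B compartment, which is richer in silent chromatin often bound to the nuclear lamina. PC1 of a contact map separates them, with A given positive values by convention, so that the sign names the compartment and the size says how far a bin's contacts lean to one side. A23187 carries calcium into cells, which drives calcium-dependent signalling in neutrophils. The study asked about NIPBL, the protein that loads cohesin onto chromatin, in compartment remodelling by such signals.

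The PC1 values are unitless scores with a mean of 0 and an SD of about 1 on each chromosome. Where zero falls therefore decides membership, and it did not fall alike in the 4 tracks. The share of compared bins in A was 42.9% in progenitors, 41.7% in untreated neutrophils, 46.9% after 15 min and 44.0% after 30 min. The 15 min track thus had the most A. Spread between neighbouring bins differed too. The root mean square deviation of a bin from the average of its neighbours at 50 kb was 0.140 in progenitors, 0.182 in untreated neutrophils, 0.135 after 15 min and 0.0960 after 30 min.

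Member bins were shallowly in A at 15 min and moderately in B elsewhere. Their PC1 had a median of -0.392 in progenitors (quartiles -0.577 and -0.220), -0.346 in untreated neutrophils (-0.501 and -0.209), 0.172 after 15 min (0.0835 and 0.325) and -0.319 after 30 min (-0.495 and -0.157). Signs do not overlap because the rule fixed them. The highest member bin reached 1.17 at 15 min, 117 member bins (9.04%) were above 0.5, and 383 (29.6%) were within 0.1 of zero. Over the 19 autosomes, the median at 15 min lay between 0.128 on chromosome 11 and 0.297 on chromosome 4.

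**Figure D1:**
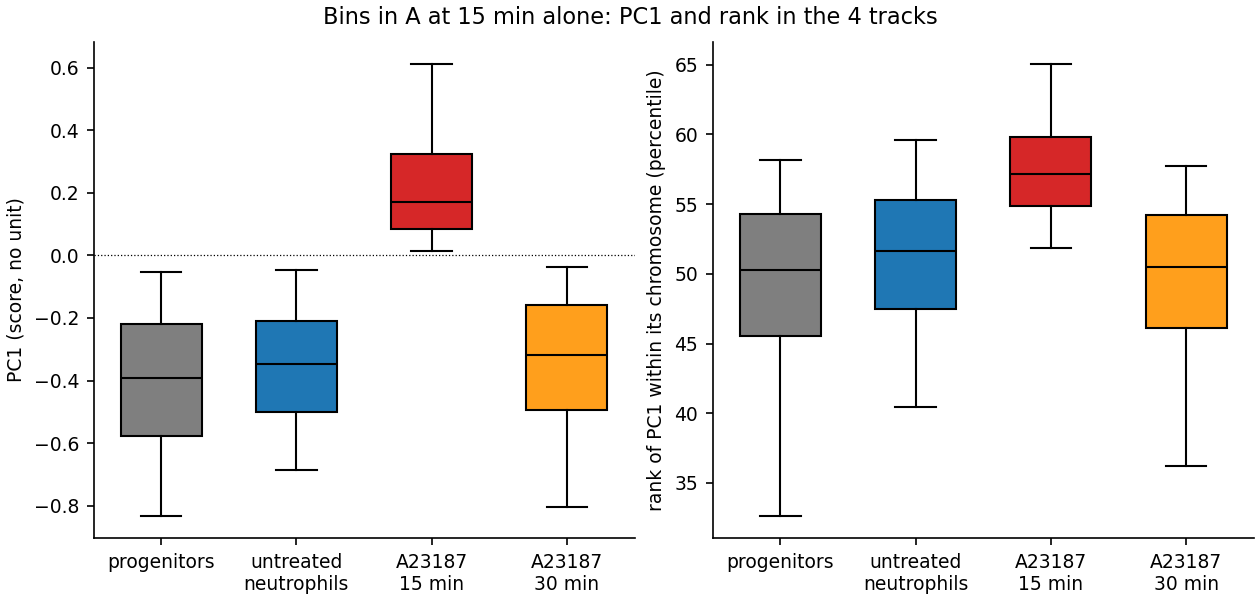
PC1 score (left) and percentile of PC1 within the bin's chromosome (right) over the 1294 member bins in the 4 tracks, with boxes for the quartiles, a line for the median and whiskers from the 5th to the 95th percentile of bins. The 15 min box lies above zero and the other 3 below it by the rule; by percentile the medians run from 50.3 in progenitors to 57.2 at 15 min.

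Members were also ranked against all compared bins of their own chromosome. The median percentile was 50.3 in progenitors, 51.6 in untreated neutrophils, 57.2 after 15 min and 50.5 after 30 min, so members sat near the middle of the chromosome's range in every track. The median difference in percentile was 5.89 points for 15 min minus untreated (quartiles 2.56 and 9.86), 6.51 points for 15 min minus 30 min and 7.199 points for 15 min minus progenitors.

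On the PC1 scale the mean over member bins was 0.227 at 15 min and -0.356 in untreated neutrophils, a difference of 0.582, with chromosome means between 0.470 on chromosome 14 and 0.698 on chromosome 4. The difference of 15 min minus 30 min averaged 0.579 and ranged from 0.455 on chromosome 18 to 0.917 on chromosome 4. Against progenitors, 15 min was higher by 0.634 on average, between 0.510 on chromosome 9 and 0.862 on chromosome 19. All 3 differences are positive in every member by the rule and are given as sizes only.

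The members' order among the B tracks was left free by the rule. At 30 min they averaged -0.352 and in untreated neutrophils -0.356, so the mean difference was 0.00371, with 677 of 1294 bins (52.3%), 188 of 360 runs and 10 of 19 chromosomes higher at 30 min. The mean at 30 min was thus close to that in untreated neutrophils. This closeness rests on where zero falls. Bringing the 30 min track to the untreated track's share of A lowers it by a median of 0.182 over chromosomes. The rule held both below zero and left out 875 bins that failed by the 30 min sign only and 928 by the untreated sign only. How much of the likeness follows from this was not tested. The chromosome means of the difference ran from -0.220 on chromosome 4 to 0.106 on chromosome 12. By percentile the difference leaned the other way, with a median of -1.38 points for 30 min minus untreated. Progenitors had the lowest mean PC1 of the 3 B tracks in 168 runs (46.7%), untreated neutrophils in 103 and the 30 min track in 89. Mean PC1 was higher in untreated neutrophils than in progenitors in 218 runs and lower in 142, and the mean difference over bins was 0.0522.

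Runs were short. A run of 50 kb, the least the rule allows, made up 163 of 360 (45.3%), the median was 75 kb and the longest was 425 kb. The 26 runs of 200 kb or more held 20.5% of the member bins. Longer runs mostly had higher values at 15 min, though not at each step. The median run mean was 0.137 among runs of 50 kb, 0.177 at 75 kb, 0.156 at 100 kb, 0.218 at 125 to 175 kb and 0.298 at 200 kb or more. Length and level come from the same track cut at zero, and a higher peak can stay above zero over more bins. Nothing is read from this trend beyond the values. In 151 runs (41.9%) the run mean stood farther from zero than the neighbour-to-neighbour deviation of the track in all 4 tracks, and in 20 runs (5.56%) farther than 2 times that deviation.

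The threshold of zero cut through a dense part of the tracks. Within 0.05 of zero at 15 min there were 211 member bins, with a median of 0.0253, and 457 bins that failed by that sign alone, with a median of -0.0230. At 30 min the counts were 97 members inside and 162 bins outside, in untreated neutrophils 68 and 108, and in progenitors 55 and 85. Bins that met every condition but 1 numbered 875 where the failing track was 30 min, 928 where it was the untreated track and 732 where it was the progenitor track.

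Membership depended on where zero was placed. With each track shifted per chromosome to the untreated track's share of A, by a median of 0.305 at 15 min (0.0644 on chromosome 11 to 0.422 on chromosome 6), the rule gave 383 bins in 111 runs. Of the original 1294 members, 308 (23.8%) were kept, touching 92 runs. The kept bins had an unshifted median of 0.440 at 15 min and a median percentile of 61.8. They made up 58.5% of the members on chromosome 11 and 54.8% on chromosome 4, but 3.64% on chromosome 6.

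Set beside the pairwise sign changes that contain them, the members were a minority. In A at 15 min and B in untreated neutrophils were 5666 bins, 5.98% of those compared, and members made up 22.8% of them. Single bins of the same signs were 9.20%, and bins in A also at 30 min and in B in progenitors were 15.4%. Bins in A in both activated tracks and in progenitors, which had been in B in untreated neutrophils only, were the most common with 39.6%. In A at 15 min and B at 30 min were 4.14% of the bins compared, 32.9% of which were members. In A at 15 min and B in progenitors were 5.46%, 25.0% of which were members. Since the rule used all 3 contrasts, nothing is read from these shares beyond the counts.

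The same rule was applied with every other track as the odd one. In A at 30 min alone were 435 bins in 115 runs, 0.459% of the bins compared, so that the 15 min set was 2.97 times as large. In A in progenitors alone were 700 bins and in A in untreated neutrophils alone 284. In B at 15 min alone were 95 bins (27 runs), and in B in untreated neutrophils alone 1950 (471 runs). The order of these sets did not hold with equal shares of A. There, 383 bins were in A at 15 min alone, 529 in A at 30 min alone (a ratio of 0.724), 769 in A in untreated neutrophils alone and 1029 in A in progenitors alone. In B at 15 min alone were then 292 bins, and in B in untreated neutrophils alone 932.

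Most member runs stood between A and B at 15 min, a share without a background here from other bins of like PC1. By the mean PC1 of the 100 kb on each side at 15 min, 232 runs (64.4%) had A on 1 side and B on the other and are called edges here. Another 58 (16.1%) had B on both sides (islands), 68 (18.9%) had A on both sides (bridges), and 2 met a gap or a chromosome end. In untreated neutrophils the same places were islands in 143 runs, edges in 193 and bridges in 22. Of the 232 edges at 15 min, 165 were edges and 67 were islands in untreated neutrophils. The 58 islands at 15 min were islands in untreated neutrophils as well. The A side was the one of lower coordinates in 131 edges and the other in 101.

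Bins in A at 15 and 30 min and in B in progenitors and untreated neutrophils, the set most like the members, numbered 591 in 188 runs. At 15 min 18.9% of the member runs were bridges, against 59.6% of those runs, and 16.1% of the member runs were islands, against 1.60%. PC1 at 15 min had a median of 0.172 in the members, against 0.263 in those bins. Members lay a median of 150 kb from the nearest bin in A in all 4 tracks, those bins 75 kb, and all untreated B bins 500 kb. Within 200 kb of such constant A were 59.1% of the members, 88.8% of the bins in A at both times and 25.7% of untreated B bins. Of all bins compared, which include constant A itself, 55.5% were, with a median of 125 kb. Untreated B bins lay deeper in B, with an untreated median of -0.859 against -0.346 in members. No background of like level is given for these distances. Members and bins in A at both times came from the same tracks, so their differences have no test.

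**Figure D2:**
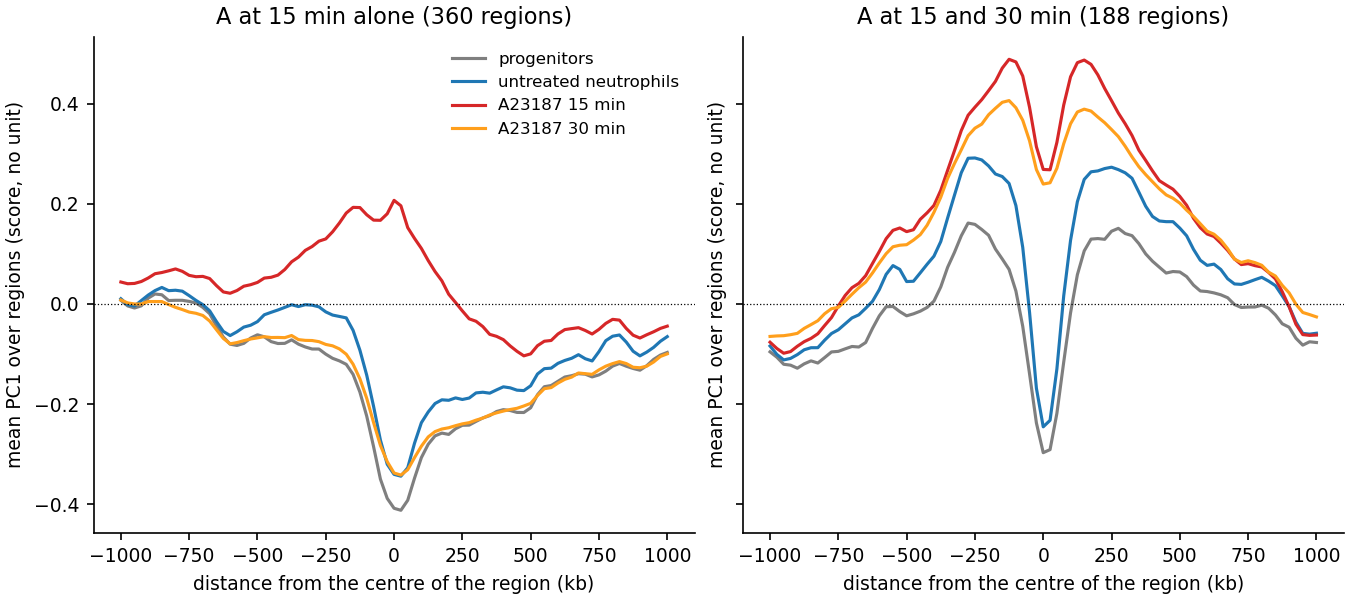
Mean PC1 score by distance from the middle of the run, for the 360 member runs and for the 188 runs in A at both 15 and 30 min, with 1 line a track. At the middle of the members the 15 min line stands at 0.207 and the 30 min, untreated and progenitor lines at -0.338, -0.341 and -0.408; in the other set 15 min stands at 0.269 and 30 min at 0.240.

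The difference at 15 min did not stop at the ends of the runs. Within 100 kb of a run lay 1368 bins that were B in all 4 tracks and so were not members. Their median PC1 was -0.673 in progenitors, -0.656 in untreated neutrophils, -0.248 after 15 min and -0.640 after 30 min. The median difference of 15 min minus untreated was 0.356, with 96.3% of these bins higher at 15 min, while that of 30 min minus untreated was 0.0136. Of 46423 bins that were B in all 4 tracks and lay farther away, 28.6% were higher at 15 min, with a median difference of -0.105. The far bins also lay deeper in B, with a median of -0.901 in untreated neutrophils. A comparison at like levels was added after these values were seen, over bins between the near bins' untreated quartiles of -0.789 and -0.523. The median difference of 15 min minus untreated was then 0.416 in 684 near bins, against 0.00430 in 9225 far ones. With equal shares of A, which moves zero at 15 min by about the size of the near bins' difference, the median over all near bins was 0.0489, with 59.7% higher at 15 min, against -0.383 over all far bins. Between the same untreated quartiles the equal-share medians were 0.110 in near bins and -0.299 in far ones. The bins near runs thus stood higher than the far ones. Equal shares of A move all bins of a chromosome by the same amount in a track. The contrast of near and far bins is therefore largely kept by construction, and this scaling is no check of it. A difference from zero rests on where zero falls. Near bins adjoin runs that were chosen for a high 15 min value. How much of the near and far contrast follows from that choice was not tested. Neighbouring windows of 50 kb overlap and share reads, which touches the nearest of these bins, and the part of this overlap was not tested.

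Bins with the members' level before activation were also compared. Between the members' quartiles in the untreated track, -0.501 and -0.209, lay 6606 bins, of which 646 (9.78%) were members. The median difference of 15 min minus untreated was 0.558 in those 646 members, against 0.209 in the other 5960 bins. Of the other 5960, 74.1% were higher at 15 min, so most bins of this level stood higher there as the tracks were deposited. That direction rests on where zero falls, since equal shares of A lower the 15 min track by a median of 0.305 over chromosomes. These bins were not compared with equal shares of A. Among the 3623 of them that shared the members' B sign in progenitors and at 30 min, a set from which the rule had taken most bins in A at 15 min, 60.0% were higher, by a median of 0.0608. For 30 min minus untreated the medians were 0.0555 in members and 0.0835 in the others. The rule selected members on the 15 min value, so their larger difference is no finding.

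Whole B segments were seldom involved. The runs fell in 286 of 1928 untreated B segments, whose median length was 675 kb, against 325 kb for all untreated B segments. A longer segment has more bins that can hold a run, and no allowance was made for length. A run took a median of 9.34% of its B segment, and 167 runs touched the edge of it. In 16 B segments at least 90% of the bins were members, 76 bins in all. At 15 min 79 runs (21.9%) were a whole A segment by themselves, and the others were part of longer A segments.

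The authors' deposited list of negative domains of the untreated track, which carries B stretches with a score each, held 1274 member bins (98.5%). Positive domains held 0, and 20 member bins lay in neither list. Of all untreated B bins, 98.9% lay in negative domains and 0 in positive ones, so the members' share is that of their B sign in the untreated track. Members lay in 275 of 1492 autosomal negative domains (18.4%). Those domains had a median length of 750 kb, against 500 kb for all, again with no allowance for the larger number of bins in longer ones. In 9 domains at least 90% of the bins were members.

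Chromosomes differed in their share of members. It was highest on chromosome 8 at 2.25% (112 bins), chromosome 16 at 2.18% (83 bins), chromosome 3 at 1.97% (123 bins) and chromosome 9 at 1.96% (95 bins). It was lowest on chromosome 2 at 0.596% (42 bins) and chromosome 19 at 0.734% (17 bins), with a median of 1.37%. Bins in A at 15 min alone outnumbered those at 30 min alone on 18 of 19 autosomes, the exception being chromosome 19 with 17 against 21. With equal shares of A they did so on 6 and were fewer on the other 13. The ranking of chromosomes changed as well, with the highest shares then on chromosome 9 at 0.867% (42 bins) and chromosome 4 at 0.797% (47 bins), against 0.502% (25 bins) on chromosome 8, 0.395% (15 bins) on chromosome 16 and 0.336% (21 bins) on chromosome 3. With each chromosome split into 3 equal lengths, 32.8% of members lay in the centromere-proximal stretch, 41.2% in the middle and 26.0% in the distal one, against 34.3%, 34.6% and 31.0% of untreated B bins.

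**Figure D3:**
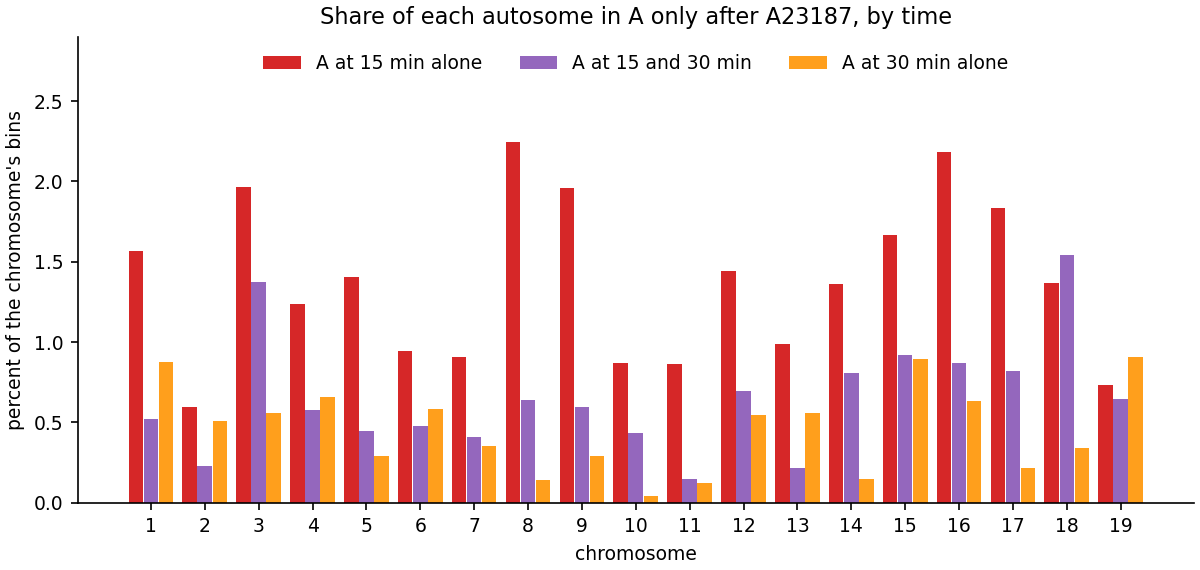
Percent of compared bins per autosome in A at 15 min alone, at both 15 and 30 min, and at 30 min alone, as bars from 0, with B in progenitors and untreated neutrophils in each case. Bars for 15 min alone are the tallest of the 3 on most chromosomes and reach 2.25% on chromosome 8; on chromosome 19 those for 30 min alone are taller. With equal shares of A, bins in A at 15 min alone outnumber those at 30 min alone on 6 autosomes.

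Runs were scattered, with some dense stretches. Members occurred in 308 of 2429 windows of 1 Mb (12.7%), and the median gap between neighbouring runs was 3125 kb. The 24 windows with at least 10 member bins held 317 of them (24.5%). Windows with members also held bins in A at both times in 17.9% of cases, against 5.09% of other windows. Both sets require A at 15 min and B in untreated neutrophils and progenitors, so nothing is read from this beyond the counts. The densest window, picked after its values were seen, was chr9:49000001-50000000 with 21 member bins. Its mean PC1 over all bins was -0.103 in progenitors, -0.178 in untreated neutrophils, 0.612 after 15 min and -0.0134 after 30 min.

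The longest run was chr4:13300001-13725000, 425 kb in mm9. Its mean PC1 was -0.582 in progenitors, -0.512 in untreated neutrophils, 0.422 after 15 min and -0.713 after 30 min. It was an island at 15 min inside an untreated B segment of 2650 kb. The 100 kb on its lower and higher side averaged -0.0808 and -0.333 at 15 min, against -0.762 and -0.775 in untreated neutrophils, so the flanks stayed in B yet were higher at 15 min. At 30 min they stood at -0.823 and -0.807. With equal shares of A, 14 of its 17 bins stayed members.

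On chromosome 4 a pair of runs stood on both sides of a 750 kb gap without values. In chr4:121150001-121425000, mean PC1 was -0.171 in progenitors, -0.271 in untreated neutrophils, 0.616 after 15 min and -0.638 after 30 min. In chr4:122200001-122400000, it was -0.163 in progenitors, -0.231 in untreated neutrophils, 0.646 after 15 min and -0.563 after 30 min. Both runs were thus lower at 30 min than before activation, by a difference of -0.367 and -0.332. Every bin of both, 11 of 11 and 8 of 8, stayed a member with equal shares of A. Gaps were not common beside members, with 1.55% of member bins within 100 kb of one or of a chromosome end, against 1.83% of untreated B bins.

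The 5 highest run means at 15 min stood in runs of 50 to 200 kb, none of them among the 10 longest. The run chr12:16500001-16675000 had a mean of -0.278 in progenitors, -0.225 in untreated neutrophils, 0.856 after 15 min and -0.230 after 30 min. In untreated neutrophils it lay near the end of a B segment of 3075 kb. The run chr10:6650001-6850000, with the highest single member bin, averaged -0.660 in progenitors, -0.268 in untreated neutrophils, 0.773 after 15 min and -0.188 after 30 min. In it the progenitor value was the lowest by far. The 50 kb run chr5:104575001-104625000 averaged -0.269 in progenitors, -0.222 in untreated neutrophils, 0.721 after 15 min and -0.0581 after 30 min, close to zero at the later time. The run chr12:73050001-73150000 averaged -0.227, -0.214, 0.616 and -0.105 in the same order of tracks and was a bridge at 15 min.

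**Figure D4:**
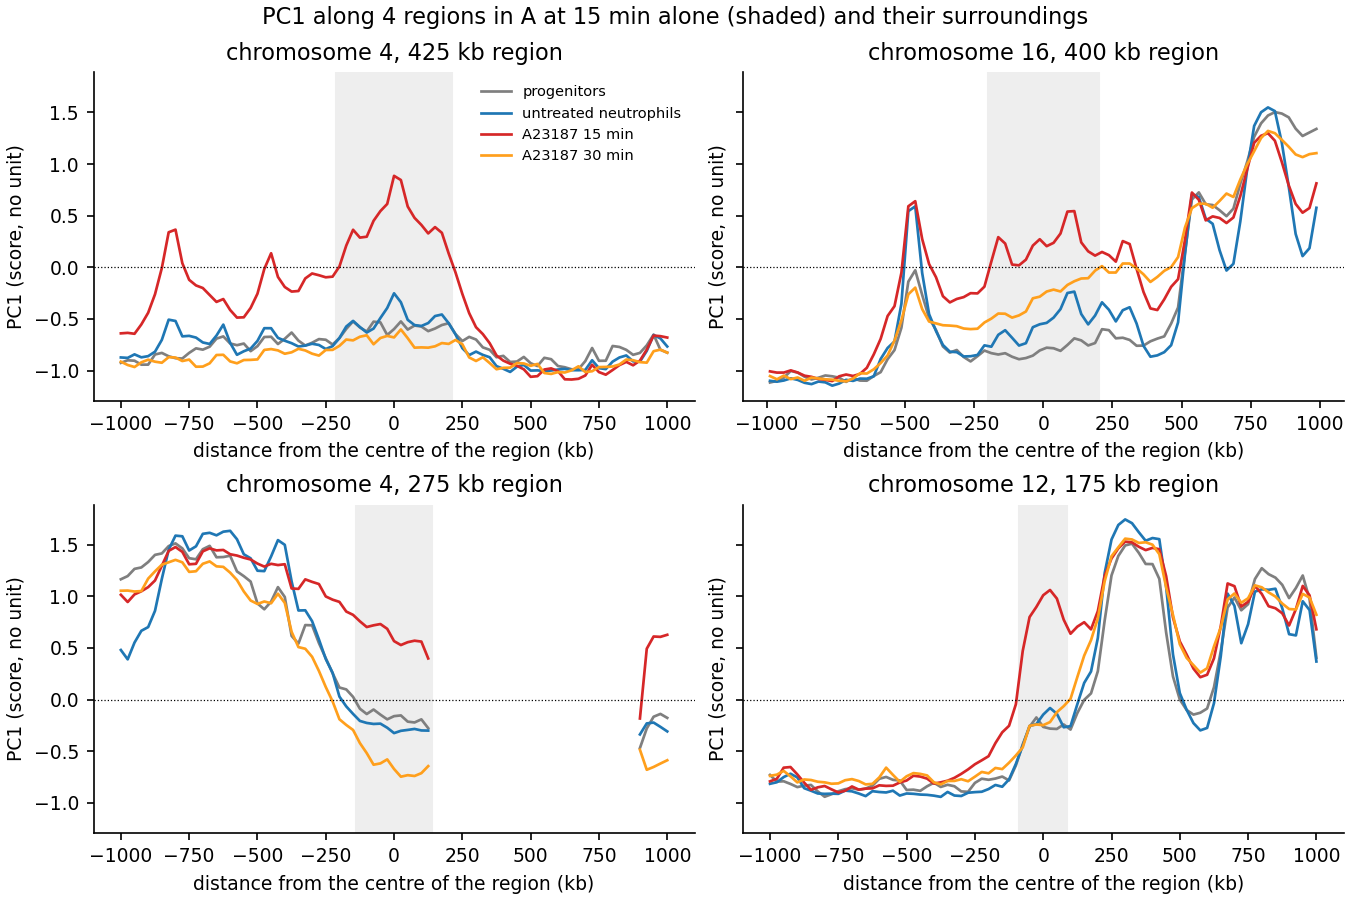
PC1 score by distance from the middle of the run in the 4 tracks for the 425 kb and the 275 kb run on chromosome 4, the 400 kb run on chromosome 16 and the 175 kb run on chromosome 12, with the run shaded. Over the shading the 15 min line lies above zero with means of 0.422, 0.616, 0.222 and 0.856 in these runs, and the other 3 lines lie below it.

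Other long runs showed other orders of the B tracks. In chr16:43150001-43550000, 400 kb long, mean PC1 was -0.801 in progenitors, -0.545 in untreated neutrophils, 0.222 after 15 min and -0.287 after 30 min, so progenitors were lowest and 30 min was nearest to A. In chr8:88675001-89050000 the untreated track was lowest, with -0.236 in progenitors, -0.608 in untreated neutrophils, 0.297 after 15 min and -0.343 after 30 min. That run filled 78.9% of its untreated B segment and bridged A on both sides at 15 min. In chr11:118425001-118800000, a B segment of 375 kb taken whole, means were -0.264, -0.274, 0.129 and -0.486 in the same order of tracks. With equal shares of A, 3 of the 16 bins on chromosome 16, 4 of the 15 on chromosome 8 and 13 of the 15 on chromosome 11 stayed members.

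Some of the longest runs were far in B at one of the other times. The run chr8:60500001-60775000 averaged -0.679 in progenitors, -0.466 in untreated neutrophils, 0.256 after 15 min and -0.972 after 30 min. In it, 30 min lay deepest in B. In chr7:103200001-103475000 the order was the reverse, with -0.673 in progenitors, -0.714 in untreated neutrophils, 0.241 after 15 min and -0.2499 after 30 min. Both were islands and whole A segments at 15 min, and each kept 5 of 11 bins with equal shares of A.

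The 3 of the 10 longest runs not yet described had A beside them at 15 min. In chr2:133925001-134225000 mean PC1 was -0.341 in progenitors, -0.302 in untreated neutrophils, 0.406 after 15 min and -0.416 after 30 min. In chr13:50575001-50825000 it was -0.203, -0.231, 0.439 and -0.325 in that order, in a place that bridged A both before activation and at 15 min. In chr9:49725001-50000000 it was -0.212, -0.543, 0.114 and -0.243, the lowest 15 min mean of the 19 named runs. Only 1 of its 11 bins stayed a member with equal shares of A, against 11 of 12 in the run on chromosome 2 and 8 of 10 in that on chromosome 13.

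Runs that stood clear of zero in every track were few. The largest margin, the least distance of a run mean from zero over the 4 tracks, was 0.440 in chr12:99525001-99650000, with means of -0.908 in progenitors, -0.524 in untreated neutrophils, 0.494 after 15 min and -0.440 after 30 min. The 425 kb run on chromosome 4 came next with 0.422. In chr3:42300001-42525000 the means were -0.388, -0.510, 0.374 and -0.635 in the same order of tracks, and the run bordered A of 1.14 at 15 min on its lower side, where the untreated mean was 0.0964. In chr1:131400001-131600000, an island, they were -0.381, -0.627, 0.368 and -0.417. In chr3:131350001-131425000 they were -0.471, -0.350, 0.432 and -0.350, so 30 min and untreated neutrophils had nearly the same value. With equal shares of A they did not, with -0.546 at 30 min and -0.350 in untreated neutrophils.

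**Figure D5:**
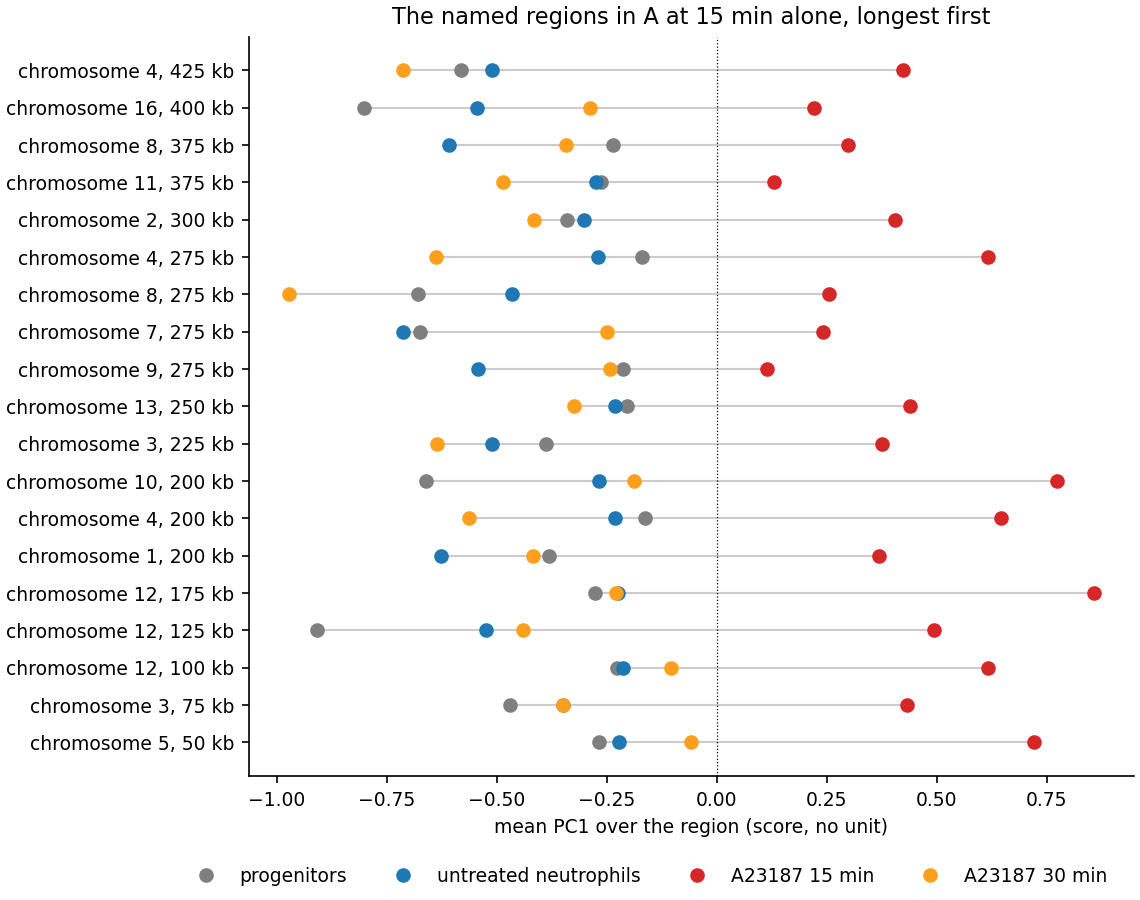
Mean PC1 score of the 19 named runs in the 4 tracks, 1 dot a track, with the longest run at the top. The 15 min dots lie between 0.114 and 0.856, and the order of the other 3 dots differs between runs.

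Of the 19 named runs, 30 min was below untreated neutrophils in 9 and above in the other 10. This split rests on where zero falls. With equal shares of A the 9 stayed below, and some of the others fell below as well. Means at 30 min and in untreated neutrophils were then -0.583 and -0.524 in chr12:99525001-99650000. They were -0.248 and -0.214 in chr12:73050001-73150000, and -0.546 and -0.350 in chr3:131350001-131425000. Means over the run kept all 4 signs with equal shares of A in 13 of the 19. All bins stayed members in 5 of them, the pair beside the gap on chromosome 4, the runs of 175 kb and 100 kb on chromosome 12 and the run on chromosome 5.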

How the data were processed

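The PC1 values of in situ Hi-C maps were deposited by the authors as scores without a unit, spaced at 25 kb in windows of 50 kb. They were made with HiC-Pro, Bowtie2 and HOMER on mm9, per the submitters' processing notes, which also name deepTools. No tool versions or settings are given in the sources used here. Lists of positive and negative domains carry a score per domain, deposited by the authors.

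Tracks were joined by bin on the 19 autosomes, with no rescaling. Python 3.11.15, numpy 2.4.6, pandas 2.3.3 and matplotlib 3.10.9 were used. The rule and the joining of bins into runs were tested on simulated data, and the flank classes were not. With 1 track a group no test was made. Values carry no read counts, so depth and its precision are unknown. Alternatives moved zero, the margin, run length, smoothing, window overlap, chromosomes, flank width and the tracks in the rule.

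Named runs are the 10 longest (ties to the higher 15 min mean), the 5 with the highest mean at 15 min and the 5 with the largest margin. One falls under a pair of these, which leaves 19. Members and lists were chosen with earlier results of these data known. Coordinates are 1-based. Genes and sequence in the runs were not analysed here, as no mm9 genome or annotation was used.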

Additional observations from a re-analysis of the deposited data

Results flagged for a closer look

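In 9 of the 19 named runs, PC1 at 15 min was above that of untreated neutrophils and PC1 at 30 min was below it. With 1 track a time, these opposite directions were not tested. The difference of 30 min minus 15 min was -1.25 in chr4:121150001-121425000, -1.23 in chr8:60500001-60775000, -1.21 in chr4:122200001-122400000, -1.14 in chr4:13300001-13725000 and -1.09 in chr12:16500001-16675000. It was -1.01 in chr3:42300001-42525000, -0.822 in chr2:133925001-134225000, -0.763 in chr13:50575001-50825000 and -0.615 in chr11:118425001-118800000. The rule placed all 9 above zero at 15 min, so the first direction is fixed and the second is not. In chr12:16500001-16675000 the second rests on a difference of -0.00552 for 30 min minus untreated. The number of such runs rests on where zero falls. With equal shares of A, 30 min was also below untreated in chr12:99525001-99650000, chr12:73050001-73150000 and chr3:131350001-131425000.

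Chromosome X, which the rule leaves out, held 168 bins of the same signs in 38 runs, or 2.87% of its 5844 bins, against 1.36% on the autosomes. Their median PC1 was -0.513 in progenitors, -0.502 in untreated neutrophils, 0.314 after 15 min and -0.718 after 30 min. In A at 30 min alone were 331 of its bins (5.66%), more than at 15 min alone. The untreated and progenitor tracks enter this count as conditions of the rule, so they give no separate background for it. With equal shares of A the autosomal share was 0.404%. No such value was made for chromosome X, so how far its share rests on where zero falls was not tested.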

How the results depend on the processing

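No paired analysis was possible because each group is 1 track and the pooled tracks carry no replicate number. Of 54 alternative values, 3 of them added after the data were seen, 29 stayed close to the value reported, 23 moved and 2 reversed. The limit for close was wide. It took in 489 runs against 360 without the progenitor condition, and a ratio of 4.09 against 2.97 without the untreated condition. The share of members, 1.36%, became 0.806% with runs of 4 or more bins, 0.489% and 0.111% with a margin of 0.1 and 0.25, 0.404% with equal shares of A or quantile scaling, and 2.08%, 2.13% and 2.15% without the progenitor, untreated or 30 min condition. The 360 runs became 881 with no run limit, 129 with 4 or more bins, 134 and 31 with those margins, 111 with equal shares or quantile scaling, 165 with every second bin, and 585 and 550 without the untreated or 30 min condition. The ratio to bins in A at 30 min alone, 2.97, turned to 0.724 with equal shares and with quantile scaling and was 1.91 with chromosome X. Equal shares and quantile scaling give every bin the same sign by construction, so for counts by sign they are not separate checks. The median at 15 min, 0.172, was 0.277 and 0.387 with those margins, as their construction requires. Islands were 20.8% and 17.5% of runs with flanks of 50 kb and 200 kb, and bridges 17.2% and 21.9%. Depth limits these values in an unknown way.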
